A study of Mus musculus with 9 samples.

Results

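The genes described here encode the proteins of the mitochondrial ribosome, measured by RNA-seq in the frontal cortex of mice that lack most of the long noncoding RNA Neat1 and of wild-type (WT) mice. They were chosen by symbol: protein-coding genes of the GENCODE annotation whose symbol begins with Mrpl or Mrps and a number, that lie on a chromosome other than 19, where Neat1 itself lies, and that had 10 or more counts in at least 4 libraries. Of 77 protein-coding genes that match the symbols, 5 lie on chromosome 19 and 1 had too few counts, which left 71 members out of 43629 genes in the counts. All 71 were among the 19753 genes tested. The lowest member count in any library was 149, in Mrpl23, while the excluded Mrpl53 had 2 counts in each Neat1-/- library and 2 to 6 in WT libraries.

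The Neat1-/- group held 4 female C57BL/6 mice aged 3, 3, 4 and 2 months (replicates 1, 3, 4 and 5), which carry lacZ and polyadenylation signals inserted just behind the Neat1 start site. The WT group held 5 female C57BL/6 mice of the corresponding background aged 2, 2, 3, 4 and 4 months (replicates 1 to 5). Libraries were made from total RNA after depletion of ribosomal RNA. Each library came from 1 animal, so p-values measure the spread between mice, and since tissue was sequenced in bulk, fewer cells of a type and less RNA per cell cannot be told apart.

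Mitochondria keep a small genome of their own, whose messenger RNAs encode core subunits of the respiratory chain and of ATP synthase. These mRNAs are translated by a separate ribosome, whose ribosomal RNAs are transcribed in the organelle and whose proteins are all encoded in the nucleus, made in the cytosol and imported. The small subunit binds the mRNA and decodes it, and the large subunit forms the peptide bond. Part of the proteins have counterparts in bacterial ribosomes and the rest were added in the mitochondrial lineage. Neurons depend heavily on oxidative phosphorylation, and in humans, inherited defects of several of these proteins cause combined deficiencies of the respiratory chain.

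The members lie on 16 chromosomes, and 17 of them (23.9%) have a protein-coding neighbour that starts within 1000 bp on the opposite strand, against 9.06% of 15294 protein-coding genes tested. RefSeq promoter windows, from 250 bases before to 50 bases after the start in build GRCm38.p6, were matched for 62 members by symbol. Both strands were searched for core motifs of factors known for nuclear genes of mitochondria. The YY1 core AAGATGGC was in 17.7% of the members' windows, against 4.17% of 11864 windows of protein-coding genes. The ETS core CCGGAAG, bound by GABPA, was in 32.3% against 16.1%, and the NRF1 core GCGCATGC in 11.3% against 4.96%. The Sp1 box GGGCGG was in 51.6% against 61.7%, and the median GC content was 58.2% against 60.3%. A match is a description of the letters and not a site. Promoters of 4 members are printed 5′ to 3′ on the strand of the gene, with matches to the YY1, ETS and NRF1 cores on either strand in capitals. Mrpl12 and Mrpl27 are shown because they are among the members with the smallest p-values, Mrpl17 because it holds both an NRF1 and an ETS core and is among the 6 largest positive fold changes, and Mrps12 because it holds a YY1 and an ETS core, is among the most abundant members per length and lies 172 bp from Sars2, a mitochondrial tRNA synthetase gene on the opposite strand. No capitals overlap between motifs, and the Mrpl12 window holds no match.
Mrpl12, chr11:120484387-120484686, plus strand: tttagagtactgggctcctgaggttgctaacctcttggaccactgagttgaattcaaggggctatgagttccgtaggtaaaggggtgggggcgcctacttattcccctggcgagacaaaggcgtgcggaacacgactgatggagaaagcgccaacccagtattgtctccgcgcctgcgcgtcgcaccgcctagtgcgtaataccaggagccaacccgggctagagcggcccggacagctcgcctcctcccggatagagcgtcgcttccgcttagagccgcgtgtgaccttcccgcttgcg
Mrpl27, chr11:94653541-94653840, plus strand: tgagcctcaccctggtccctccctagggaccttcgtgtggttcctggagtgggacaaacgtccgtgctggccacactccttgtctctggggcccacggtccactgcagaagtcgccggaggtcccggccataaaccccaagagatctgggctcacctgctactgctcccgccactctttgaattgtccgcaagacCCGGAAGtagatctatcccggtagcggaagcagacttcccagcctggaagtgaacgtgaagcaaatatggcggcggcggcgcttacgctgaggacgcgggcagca
Mrpl17, chr7:105811038-105811337, minus strand: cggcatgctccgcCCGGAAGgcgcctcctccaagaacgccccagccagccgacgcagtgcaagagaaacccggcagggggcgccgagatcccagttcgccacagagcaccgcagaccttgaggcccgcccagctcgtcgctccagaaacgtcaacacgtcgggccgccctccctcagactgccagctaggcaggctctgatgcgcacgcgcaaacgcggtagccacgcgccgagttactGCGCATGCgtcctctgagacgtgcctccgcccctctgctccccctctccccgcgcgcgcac
Mrps12, chr7:28741772-28742071, minus strand: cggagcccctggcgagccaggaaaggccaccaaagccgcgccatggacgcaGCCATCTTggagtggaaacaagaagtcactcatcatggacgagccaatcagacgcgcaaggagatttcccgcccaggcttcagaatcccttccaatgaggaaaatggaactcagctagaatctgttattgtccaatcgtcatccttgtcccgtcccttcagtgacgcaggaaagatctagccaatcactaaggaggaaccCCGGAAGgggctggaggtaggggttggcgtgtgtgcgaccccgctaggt

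Library totals were 51276067 to 64648856 counts. Neat1 itself stood at 7.38, 7.11, 8.36 and 9.72 CPM (counts per 1e+06 of the library's total, scaled with TMM factors) in Neat1-/- mice, against 60.8, 83.2, 119.9, 68.1 and 75.3 CPM in WT mice, so every mouse matched its label (log2 fold change -3.33, adjusted p = 1.27e-06 by edgeR's quasi-likelihood fit). WT replicates 3 and 4 stood apart from the other libraries. The GENCODE classes TEC and sense intronic took 0.234% and 0.212% of their counts, against 0.119% to 0.136% in Neat1-/- mice and 0.113% to 0.129% in the other WT mice. The counts of members, their medians and their sums are therefore also given without these libraries. Markers of neurons summed to 8437 to 8828 CPM in Neat1-/- mice and 8242 to 8641 CPM in WT mice, with 0 of 8 higher and 1 lower at a nominal p (unadjusted, by edgeR's quasi-likelihood fit) under 0.05. Markers of oligodendrocytes summed to 1953 to 2976 CPM in Neat1-/- mice and 2296 to 3630 CPM in WT mice, with 5 of 9 lower at that threshold and none of the 9 at 0 counts. Of the progenitor markers 3 of 5 were lower, and of the microglial markers 3 of 7 were higher. Without WT replicates 3 and 4, 3 of 9 oligodendrocyte and 4 of 5 progenitor markers were lower and 1 of 7 microglial markers was higher. In that fit 3.81% of all genes were higher and 3.48% lower. Meningeal fibroblast markers summed to 74.1 to 105 CPM in Neat1-/- mice, and in WT mice from 31.7 CPM in replicate 4 to 233 CPM in replicate 2. Choroid plexus markers summed to 114 CPM in WT replicate 3, against 14.7 to 26.2 CPM in Neat1-/- mice and 20.6 to 24.6 CPM in the other WT mice. The part of such shifts in the members' values was not tested.

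The genes of the mitochondrial ribosome differed little between the genotypes as a sum. Their summed level was 1697, 1690, 1645 and 1665 CPM in Neat1-/- mice, against 1682, 1653, 1573, 1633 and 1712 CPM in WT mice. The Neat1-/- sums all lay inside the WT range, with means of 1674 ± 23.9 CPM (SD, n = 4) and 1651 ± 52.8 CPM (SD, n = 5). The WT mean without replicates 3 and 4 was 1682 ± 29.6 CPM (SD, n = 3), above that of the Neat1-/- mice. The balance of the subunits was the same to within its spread: the summed CPM of large subunit genes was 1.98 ± 0.033 times that of small subunit genes in Neat1-/- mice (SD, n = 4) and 1.98 ± 0.033 times in WT mice (SD, n = 5), or 1.97 ± 0.041 times without WT replicates 3 and 4 (SD, n = 3).

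Per length of exon, the members spanned a wide range of levels, which was shared by both genotypes. The mean over the 9 mice went from 0.792 CPM per kb in Mrpl23, a protein near the exit of the nascent peptide, to 37.2 CPM per kb in Mrpl41, a mitochondria-specific protein of the large subunit, with a median of 8.56. Behind Mrpl41 came Mrps21, at 26.2 CPM per kb, Mrps12, whose bacterial counterpart sits at the decoding centre, at 25.8, Mrpl28 at 25.6, Mrpl34 at 22.4 and Mrpl20 at 22.1. The levels of Mrps21, Mrps12 and Mrpl28 differed by less than their spread over mice (coefficients of variation of 4.07%, 6.75% and 5.51%), and so did those of Mrpl34 and Mrpl20 (4.15% and 4.70%). At the low end, Mrpl23 was followed by Mrps35 at 2.06, Mrps10 at 2.41 and Mrps34 at 2.54 CPM per kb. The length is the union of all annotated exons, so the order depends on the annotation as well as on the counts. Mrps35, at 17.8 CPM over 8631 bases, and Mrps21, at 19.4 CPM over 739 bases, had similar CPM but lay near opposite ends. For Mrps34, 77.8% of the exon bases are shared with other genes in the annotation, as are 69.8% for Mrps25, so their counts are uncertain. In all, 28 of the 71 members share some exon bases with another gene and 5 share over 25%.

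**Figure D1:**
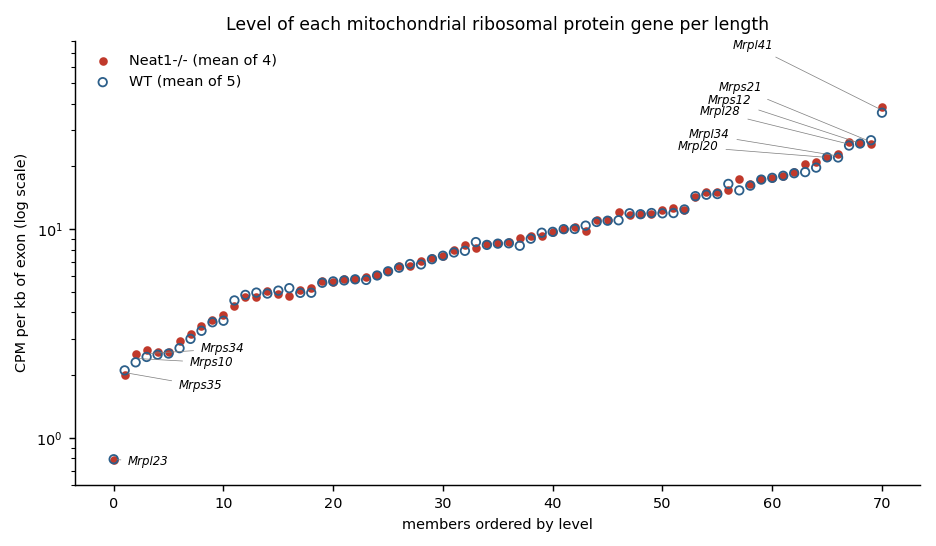
Mean level of each of the 71 members in CPM per kb of exon (log scale) in Neat1-/- mice (filled, mean of 4) and WT mice (open, mean of 5), ordered by the mean over all mice. The members run from 0.792 CPM per kb in Mrpl23 to 37.2 in Mrpl41, and the points of the genotypes lie close together throughout.

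The fold changes of single members were small. The log2 fold change (Neat1-/- over WT) had a median of 0.02 and ran from -0.13 in Mrps33 to 0.18 in Mrpl54, and for 62 of the 71 members it was under 0.1 in size. It was positive for 50 members and negative for 21, while over all 19753 genes the median was 0.00. The median size of the change was 0.04 on the log2 scale among the members, 0.05 among 8781 protein-coding genes in the same range of CPM and 0.07 among all genes tested. The members also varied little from mouse to mouse, with a median coefficient of variation of 5.36%, against 6.01% in the protein-coding genes of that range. The median standard error (SE) of a member's log2 fold change was 0.053. The 95% interval lay within a 1.2-fold change in either direction for 64 of the 71 members and within 1.1-fold for 23, and the widest bound, for Mrps34, was 1.26-fold.

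**Figure D2:**
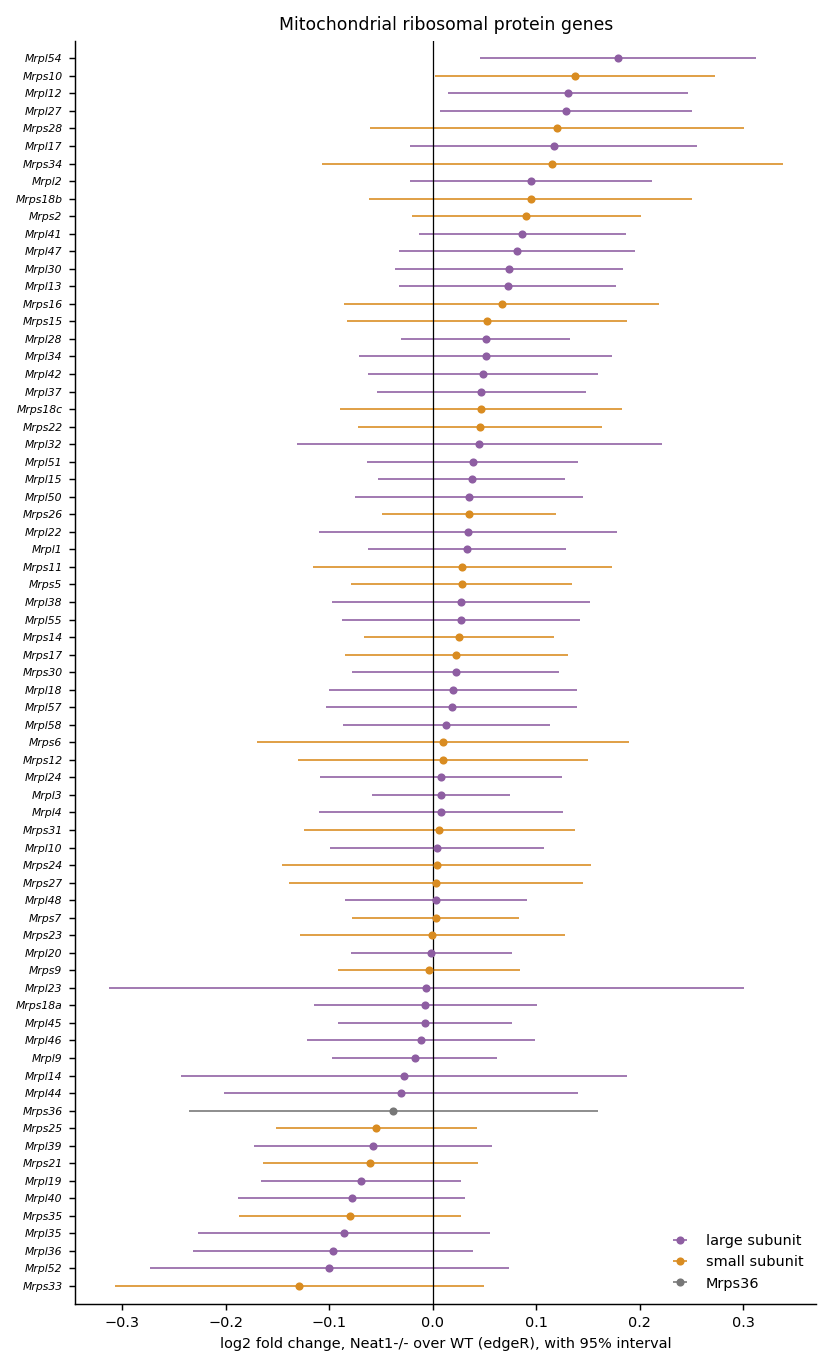
log2 fold change of each member (Neat1-/- over WT) with its 95% interval from edgeR, coloured by subunit. The intervals of Mrpl54, Mrps10, Mrpl12 and Mrpl27 lie above 0, those of the other 67 members include 0, and the largest point estimate is 0.18.

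At a nominal p under 0.05, 4 members were higher and 0 were lower in Neat1-/- mice. The shares over all genes tested were 4.27% for higher and 4.03% for lower. The 4 members are 5.63% of the 71, which is below the 8.30% of all genes that passed in either direction and the 8.50% of protein-coding genes in the same range of CPM. With edgeR, DESeq2 or limma, 0 members reached an adjusted p under 0.05, as 0.0709% of all genes did by edgeR, and the smallest adjusted p among the members was 0.543 by edgeR's quasi-likelihood fit. At a nominal p under 0.05, DESeq2 gave 2 higher and 0 lower members, where 7.80% of all genes passed in either direction, and limma gave 4 and 0, where 9.90% did. The CPM values of the genotypes did not overlap for 1 member, Mrpl54, or 1.41% of the members, against 2.67% of all genes.

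Mrpl54, a mitochondria-specific protein of the large subunit on chromosome 10 (81264713 to 81266934 in GRCm38, as for the other positions), had the largest fold change. It stood at 14.5, 15.1, 13.6 and 14.3 CPM in Neat1-/- mice, against 12.6, 13.3, 12.1, 11.8 and 13.6 CPM in WT mice. The lowest Neat1-/- mouse, replicate 4, and the highest WT mouse, replicate 5, lay almost at the same level. The log2 fold change was 0.18 (SE 0.062, 95% interval 0.05 to 0.31), with a nominal p of 0.0124 and an adjusted p of 0.543 by edgeR's quasi-likelihood fit (exact permutation test of the CPM values, two-sided, p = 0.0159, where 4 mice against 5 allow no p below 0.00794). It was the only member with a nominal p under 0.05 in all 9 fits that left out 1 library each.

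Mrpl12 forms the flexible stalk of the large subunit, to which translation factors bind, and lies on chromosome 11 (120484613 to 120489065). Its levels were 19.22, 17.90, 19.04 and 17.98 CPM in Neat1-/- mice, against 15.3, 17.4, 16.5, 17.3 and 18.1 CPM in WT mice. Only WT replicate 5 reached the range of the Neat1-/- mice, and WT replicate 1 was the lowest. The log2 fold change was 0.13 (SE 0.053), with a nominal p of 0.0298 and an adjusted p of 0.580 by edgeR's quasi-likelihood fit. Without WT replicate 1 it was 0.09, with a nominal p of 0.103 by edgeR. Mrpl10, the protein that anchors the stalk, had a log2 fold change of 0.00 (SE 0.048).

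Mrpl27, whose bacterial counterpart reaches towards the peptidyl transferase centre, lies on chromosome 11 (94653767 to 94660089). It was at 20.83, 20.78, 19.40 and 19.96 CPM in Neat1-/- mice, against 18.5, 20.4, 16.8, 18.2 and 18.6 CPM in WT mice. WT replicate 2 lay within the Neat1-/- range and WT replicate 3 was the lowest of all. The log2 fold change was 0.13 (SE 0.056), with a nominal p of 0.0396 and an adjusted p of 0.594 by edgeR's quasi-likelihood fit.

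Mrps10, a small subunit protein with a bacterial counterpart, lies on chromosome 17 (47368887 to 47381417). Its levels were 21.2, 19.9, 19.5 and 21.4 CPM in Neat1-/- mice, against 19.7, 16.3, 19.2, 18.8 and 19.3 CPM in WT mice. The groups overlapped between Neat1-/- replicate 4 and WT replicate 1, and WT replicate 2 stood well below the rest. The log2 fold change was 0.14 (SE 0.062), with a nominal p of 0.0465 and an adjusted p of 0.598 by edgeR's quasi-likelihood fit. Without WT replicate 2 it was 0.08, with a nominal p of 0.153 by edgeR.

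**Figure D3:**
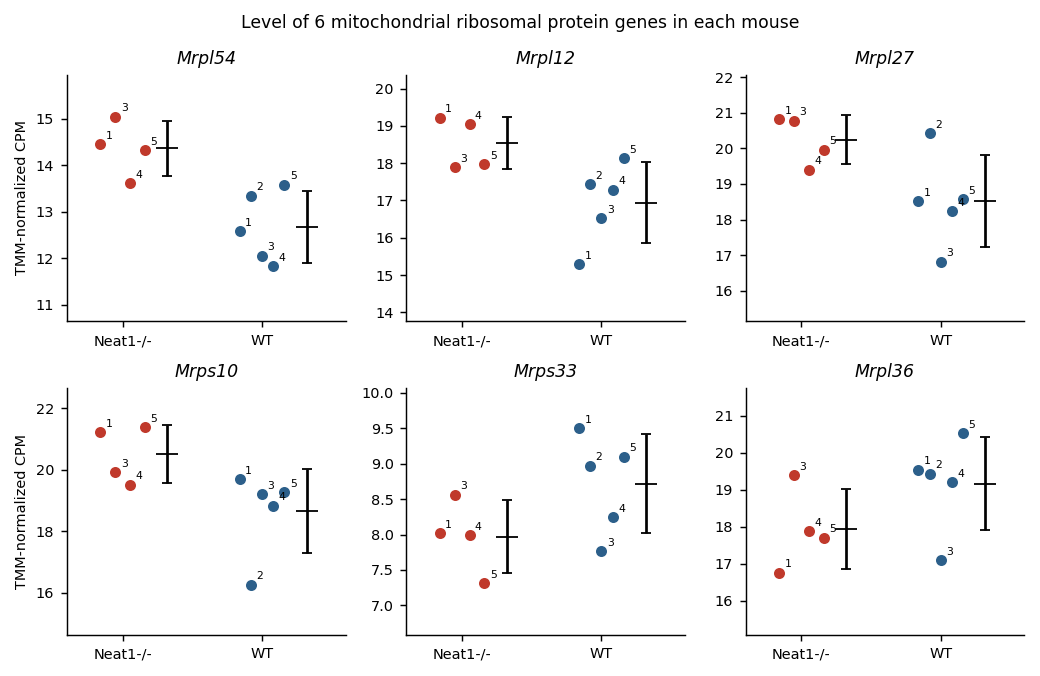
TMM-normalized CPM of 6 members in each mouse; points are mice with their replicate numbers, bars the mean and SD (4 Neat1-/-, 5 WT), and the vertical axes do not start at 0. The groups overlap in each panel except Mrpl54, where Neat1-/- replicate 4 at 13.6 CPM lies just above WT replicate 5.

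The most negative fold changes were no larger. Mrps33, a mitochondria-specific protein of the small subunit, was at 8.02, 8.56, 7.99 and 7.32 CPM in Neat1-/- mice, against 9.50, 8.97, 7.77, 8.25 and 9.10 CPM in WT mice. WT replicates 3 and 4 lay within the range of the Neat1-/- mice and the other WT mice above it. The log2 fold change was -0.13 (SE 0.082), with an adjusted p of 0.669 by edgeR's quasi-likelihood fit. Mrpl52 had a log2 fold change of -0.10 (SE 0.080), Mrpl36 one of -0.10 (0.062), Mrpl35 one of -0.09 (0.065), Mrps35 one of -0.08 (0.050) and Mrpl40 one of -0.08 (0.051). Mrpl36 and Mrpl35 have bacterial counterparts in the large subunit, and Mrpl40 and Mrpl52 are mitochondria-specific. None of the 6 was at a nominal p under 0.05.

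The positive balance depended on WT replicate 3, without which 34 of 71 members had a positive fold change. In that mouse 63 of the 71 members were below their mean over the 9 mice, and 26 had their lowest value there. The median deviation of the members from their means was 0.03, 0.03, -0.01 and 0.01 on the log2 scale in the Neat1-/- mice, against 0.02, -0.01, -0.09, -0.03 and 0.05 in the WT mice. WT replicates 3 and 4 thus had the lowest medians and WT replicate 5 the highest, so the WT mice enclosed the Neat1-/- mice on both sides. Without WT replicates 3 and 4 the median log2 fold change of the members was -0.01 and 33 of 71 were positive. In that fit 0 members were higher and 2 lower at a nominal p under 0.05, against 3.81% higher and 3.48% lower among the 19714 genes then tested. The 2 were Mrps33, with a log2 fold change of -0.21 (nominal p of 0.0211), and Mrpl36, with one of -0.16 (nominal p of 0.0231). Mrpl54 was then at 0.12, with a nominal p of 0.0906. Leaving out WT replicate 3 alone gave a median of 0.00 with 1 member higher and 1 lower, where 7.38% of all genes passed in either direction. Leaving out WT replicate 4 alone gave 0.01 with 1 and 1, where 5.50% did.

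**Figure D4:**
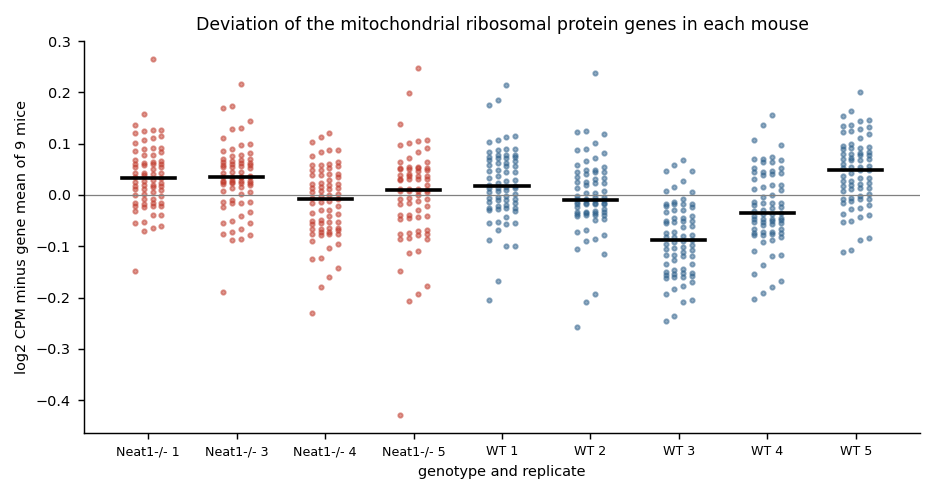
log2 CPM of each of the 71 members minus its mean over the 9 mice, by mouse; points are genes and black bars the median of each mouse. The median is lowest in WT replicate 3, at -0.09, and highest in WT replicate 5, at 0.05, with the Neat1-/- mice between them.

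The medians of both subunits were close. Of 44 large subunit genes, 3 were higher and 0 lower at a nominal p under 0.05, with a median log2 fold change of 0.02. Of 26 small subunit genes, 1 was higher and 0 lower, with a median of 0.02. These are 6.82% of the large and 3.85% of the small subunit genes, where 4.27% of all genes tested were higher and 4.03% lower. Proteins with bacterial counterparts had a median of 0.03 over 44 genes, 3 of them higher, and mitochondria-specific proteins one of 0.01 over 26 genes, 1 of them higher. Without WT replicates 3 and 4, the median was 0.00 for the large subunit and -0.01 for the small subunit, each with 0 genes higher and 1 lower. It was then 0.00 for proteins with bacterial counterparts and -0.03 for mitochondria-specific ones, again with 0 higher and 1 lower in each. Over all genes in that fit, 3.81% were higher and 3.48% lower. Mrps36, counted in neither subunit because its protein belongs to the 2-oxoglutarate dehydrogenase complex, had a log2 fold change of -0.04 (SE 0.091).

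Several members are known in humans as causes of combined oxidative phosphorylation deficiency. Those listed here had log2 fold changes of 0.12 or less in size, with 95% intervals that include 0. The list is not complete and leaves out Mrpl12, described above with a log2 fold change of 0.13. It also leaves out Mrps28, at 0.12 (95% interval -0.06 to 0.30). Mrpl3, the most abundant member in CPM, was at 79.9, 79.3, 78.0 and 79.3 CPM in Neat1-/- mice, against 75.9, 76.7, 78.0, 81.2 and 81.9 CPM in WT mice. The WT mice spanned the wider range and enclosed all 4 Neat1-/- mice, with a log2 fold change of 0.01 (95% interval -0.06 to 0.07). Mrps7 was at 36.6 ± 1.13 CPM in Neat1-/- mice (SD, n = 4) and 36.6 ± 0.982 CPM in WT mice (SD, n = 5), with a log2 fold change of 0.00 (95% interval -0.08 to 0.08). Mrps22, mitochondria-specific, had a log2 fold change of 0.05 (95% interval -0.07 to 0.16). Mrpl44, which resembles a ribonuclease, was at -0.03 (-0.20 to 0.14). Mrps2 was at 0.09 (-0.02 to 0.20), Mrps16 at 0.07 (-0.09 to 0.22) and Mrps34 at 0.12 (-0.11 to 0.34). Mrps12, of the decoding centre, is not counted among these disease genes and was at 0.01 (-0.13 to 0.15).

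The 5 genes of the same symbols on chromosome 19, left out by the rule, included 2 whose values did not overlap between the genotypes, on either side of Neat1 (5824708 to 5845478). Over all genes tested, 2.67% did not overlap in either direction. Mrpl49 (6053622 to 6057785 in GRCm38) was at 40.3, 38.3, 38.2 and 38.3 CPM in Neat1-/- mice, against 36.2, 33.5, 31.7, 37.5 and 36.2 CPM in WT mice. Mrpl11 (4962147 to 4966999) was at 30.4, 30.1, 31.1 and 30.4 CPM in Neat1-/- mice, against 33.1, 34.8, 32.4, 32.6 and 34.4 CPM in WT mice. The log2 fold changes were 0.15 for Mrpl49 and -0.14 for Mrpl11, in opposite directions, with adjusted p-values of 0.543 and 0.453 by edgeR's quasi-likelihood fit. At a nominal p under 0.05, 1 of the 5 was thus higher and 1 lower, against 4.27% and 4.03% of all genes. The other 3 did not pass. Without WT replicates 3 and 4, 1 was higher and 2 lower, against 3.81% and 3.48% of all genes. By edgeR, Mrpl49 was then at 0.13 (nominal p of 0.0144), Mrpl11 at -0.17 (0.00163) and Mrpl21 at -0.14 (0.0224).

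The mitochondrial ribosomal RNAs, which the member proteins coat, were counted as what was left after rRNA depletion. Reads of both took 4.27%, 3.73%, 4.62% and 4.01% of all counts in Neat1-/- mice, against 3.75%, 3.71%, 3.61%, 3.64% and 3.93% in WT mice. Neat1-/- replicate 4 was the highest, and the groups overlapped. The log2 fold changes were 0.21 for mt-Rnr1, the small subunit rRNA, and 0.16 for mt-Rnr2, the large subunit rRNA. Both were higher at nominal p-values of 0.00652 and 0.00488, with adjusted p-values of 0.504 and 0.468 by edgeR's quasi-likelihood fit. The exact permutation test of the CPM values, two-sided, gave weaker p-values of 0.0556 and 0.0476. Without WT replicates 3 and 4 the log2 fold changes were 0.16 and 0.10, at nominal p-values of 0.0423 and 0.0390 by edgeR. How completely each library was depleted was not measured, so these levels and the depletion cannot be told apart. Counted reads of the mRNAs that this ribosome translates took 1.49% ± 0.0244 of the counts in Neat1-/- mice (SD, n = 4) and 1.46% ± 0.0477 in WT mice (SD, n = 5). Without WT replicates 3 and 4 the WT share was also 1.49%, with an SD of 0.0110 (n = 3). Of 9 tested, 2 were higher at a nominal p under 0.05, where 4.27% of all genes were. These were mt-Co3 and mt-Co2, which encode subunits of cytochrome c oxidase. With WT replicates 3 and 4 left out, 1 of the 9 was higher at that threshold, mt-Co2, where 3.81% of all genes were. Both mt-Co2 and mt-Co3 had few counted reads, mt-Co3 at 0.305 ± 0.129 CPM in Neat1-/- mice (SD, n = 4) and 0.152 ± 0.0397 CPM in WT mice (SD, n = 5). By contrast mt-Nd1 stood at 1595 ± 47.4 CPM in Neat1-/- mice and 1524 ± 78.6 CPM in WT mice, a log2 fold change of 0.07 (SE 0.038). Whether the low counts of mt-Co2 and mt-Co3 reflect their RNA levels or reads lost in mapping or counting was not tested.

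Differences were also mostly small in other parts of the mitochondrial translation pathway. A further list of 6 genes held mitoribosome proteins and Oxa1l, which inserts new proteins into the inner membrane. At a nominal p under 0.05, 2 of these were higher and 0 lower, where 4.27% of all genes were higher and 4.03% lower. The 2 were Oxa1l, with a log2 fold change of 0.10 (SE 0.045), and the mitoribosome protein Gadd45gip1, with one of 0.13 (0.058). Of 20 assembly factors, 1 was higher, the RNA helicase Ddx28 at 0.13 (SE 0.051), and 1 lower, the rRNA methyltransferase Mrm1 at -0.11 (0.052). Of 10 genes for mitochondrial RNA synthesis and processing, Lrpprc, which stabilises mitochondrial mRNAs, was lower. It stood at 125.8, 131.2, 129.0 and 130.7 CPM in Neat1-/- mice, against 138.8, 136.8, 134.9, 141.5 and 133.2 CPM in WT mice. Each Neat1-/- mouse was below each WT mouse, with a log2 fold change of -0.09 (SE 0.031) and an adjusted p of 0.558 by edgeR's quasi-likelihood fit. Of 11 translation factors and 17 mitochondrial tRNA synthetases, 0 were at a nominal p under 0.05. In the last list, Lars2 varied most, from 74.4 to 994 CPM in Neat1-/- mice and from 55.2 to 220.7 CPM in WT mice. Oxa1l, Ddx28, Mrm1 and Lrpprc stayed at a nominal p under 0.05 in the same directions without WT replicates 3 and 4, and Gadd45gip1 did not (p of 0.127 by edgeR). None of the genes in these lists passed an adjusted p of 0.05 by edgeR.

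The members were set beside the proteins of the cytosolic ribosome and of the respiratory chain in the same libraries. Of 76 cytosolic ribosomal protein genes, 52 were higher and 0 lower at a nominal p under 0.05, with a median log2 fold change of 0.11, and 19 did not overlap between the genotypes. Over all genes tested, 4.27% were higher, 4.03% lower and 2.67% did not overlap in either direction. Without WT replicates 3 and 4, 23 of the cytosolic genes were higher, with a median of 0.06. In that fit 3.81% of all genes were higher and 3.48% lower. The summed CPM of the members was 22.1%, 22.3%, 22.4% and 21.9% of that of the cytosolic list in Neat1-/- mice, against 24.1%, 22.9%, 23.9%, 24.3% and 23.1% in WT mice. The Neat1-/- mice thus had the lower share in every case, with the cytosolic sum at 7549 ± 155 CPM in Neat1-/- mice (SD, n = 4) and 6982 ± 344 CPM in WT mice (SD, n = 5). Nuclear genes of the respiratory chain were nearer to the members, with 2 of 83 higher, 0 lower and a median of 0.03. In the fit without WT replicates 3 and 4, 1 was higher and 4 were lower, with a median of -0.02 and 26 of 83 positive. The members' sum was 18.6% ± 0.299 of theirs in Neat1-/- mice (SD, n = 4) and 18.8% ± 0.352 in WT mice (SD, n = 5). These differences between lists are descriptions and were not tested.

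**Figure D5:**
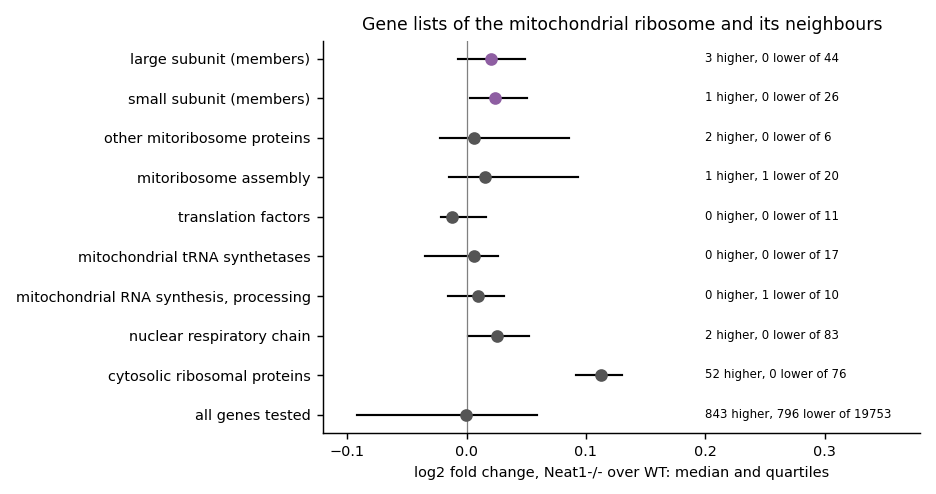
Median log2 fold change (Neat1-/- over WT; points) and quartiles (lines) of the members by subunit, of related gene lists and of all genes tested, with the number higher and lower at a nominal p under 0.05. The members sit at 0.02, the nuclear respiratory chain at 0.03 and the cytosolic ribosomal proteins at 0.11.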

How the data were processed

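Frontal cortex RNA of 4 Neat1-/- and 5 WT mice was sequenced after rRNA depletion. Raw counts for each Ensembl gene were deposited by the authors, with totals of 51276067 to 64648856, as was a table of normalized log2 values, which was not used. Reads were aligned to mm10 and counted, for which the submitters' notes give STAR (2.5.0) and HTSeq (0.8.0), whereas the supplementary methods name another aligner and another version of HTSeq. Whether counting used the strand is not given in the sources used here.

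Counts were named by Ensembl ID from GENCODE M21. Genes kept by edgeR's filterByExpr were tested with edgeR 4.0.16 (R 4.3.3, glmQLFit and glmQLFTest) with TMM factors and terms for genotype and age (numeric, months). P-values were adjusted over all 19753 genes by the method of Benjamini and Hochberg and called at 0.05, and unadjusted ones are named nominal. The common dispersion gave a coefficient of variation of 0.0922. Log2 deviations used a prior count of 2. For single genes, an exact two-sided permutation test of CPM over all splits of the mice was added. Promoters came from RefSeq (GRCm38.p6). Python 3.11.15, pandas 2.3.3 and SciPy 1.17.1 were used for summaries.

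The members and lists were chosen with earlier results of these data known, and no list was tested as a set. Named members were those without overlap at a nominal p under 0.05, the 6 largest and 6 most negative fold changes, the 6 highest and 4 lowest levels per kb of exon, 10 set genes, and up to 3 genes of each pathway list with the smallest p. Exon length was the union of all annotated exons. The test was checked on simulated counts. Alternatives were DESeq2 1.42.0, limma 3.58.1 (voomWithQualityWeights), other size factors, filters and age terms, the replicate number as a block, leaving out each library in turn, and WT replicates 3 and 4 left out together.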

Additional observations from a re-analysis of the deposited data

Results flagged for a closer look

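In 2 of the 58 groups of values examined (each named member, the members' sum and the subunit ratio, in each genotype), 1 mouse lay far from the others of its group, where chance flags about 1 in 20 groups. Mrps10, among the members with a positive fold change, was at 16.3 CPM in WT replicate 2, while the other WT mice were between 18.8 and 19.7 CPM. Mrpl34, a large subunit protein with a bacterial counterpart, was at 12.2 CPM in WT replicate 3, while the other WT mice were between 13.4 and 13.9 CPM.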

How the results depend on the processing

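In all 19 alternatives 0 members passed an adjusted p of 0.05, and the smallest adjusted p of a member ranged from 0.141 (without WT replicate 5) to 0.893. The count of members higher at a nominal p under 0.05, 4 in the reported fit, was 2 with DESeq2, 2 with the replicate block and 0 without WT replicates 3 and 4, where 2 were lower. With 1 library left out at a time it ranged from 1 to 6, and the count of lower members from 0 to 1, while the share of all genes at that threshold in either direction ranged from 5.16% to 14.7%. The 6 were found without WT replicate 5, where 8.45% of the members and 14.7% of all genes passed. With the replicate block 2.82% of the members and 10.2% of all genes did. It was 1 without Neat1-/- replicate 1, WT replicate 3 or WT replicate 4, and 2 without Neat1-/- replicate 3. The median log2 fold change ranged from 0.00 to 0.04 with 1 library left out, and was -0.01 without WT replicates 3 and 4. Replicate numbers were not taken to pair the mice: the deviations of same-numbered mice correlated at 0.04, -0.04, 0.14 and -0.08 over all genes. The value of 0.14, for number 4, was the highest of any Neat1-/- and WT pair. Whether some numbers share a batch was not tested. Of the 4 members with a nominal p under 0.05, Mrpl54 kept that in 18 alternatives, Mrpl12 in 11, Mrpl27 in 11 and Mrps10 in 7, all with a positive fold change throughout. By library size alone the median of all genes was -0.01 and 39 members were positive. With 4 and 5 mice, the intervals lay within a 1.1-fold change in either direction for 23 of the 71 members and within 1.2-fold for 64. For most members, changes somewhat above 1.1-fold in at least 1 direction thus stay undecided, as do smaller ones.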
